A study of Mus musculus with 6 samples.

Results

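Bone marrow-derived macrophages of wild type C57Bl/6 mice, treated for 48 hours with IL-4 at 20 ng/mL, are described here by the absolute level of their transcripts. They make up 3 of the 6 libraries of the study, chosen by the wild type label alone. The other libraries are labelled CD22 knockout, had the same treatment and were not used. Marrow cells had been grown into macrophages with 25% L929-conditioned medium, a source of the growth factor CSF1, which was present during the IL-4 treatment too. Age and sex of the mice are not given in the labels, nor whether the libraries came from separate animals, so the spread between them may be technical. Each library also has its own batch code in the labels. No untreated group was analysed here, so the values describe the state of the cells under IL-4 and not what IL-4 changed.

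IL-4 binds a receptor made of IL-4Rα with either the common γ chain or IL-13Rα1, and signals through JAK kinases to the transcription factor STAT6. Macrophages that receive this signal take up the alternatively activated, M2-like state, known in mice for arginase 1, the chitinase-like protein Ym1 (Chil3), the resistin-like protein Fizz1 (Retnla) and the mannose receptor (Mrc1). Such cells are known for matrix remodelling, uptake of glycoproteins and dead cells, and reliance on fatty acid oxidation and respiration.

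Levels are FPKM, fragments scaled to transcript length and to all mapped fragments, so that genes of different length can be set side by side. Of 31883 genes in the table, 10718 had a mean of at least 1 FPKM over the 3 libraries, 4057 at least 10, 395 at least 100 and 40 at least 1000 FPKM. Of 17910 protein-coding genes 9755 had at least 1 FPKM, 3818 at least 10, 357 at least 100 and 33 at least 1000. Counts of list members below are to be read beside these counts. The summed FPKM was 314441, 325735 and 333245 in wild type libraries 1, 2 and 3, which is the order of every run of 3 values below. Read depth is unknown, and low FPKM values put libraries 2 and 3 at 1.02 and 0.973 of the depth of library 1. Pearson's r between libraries, across genes on the log2 scale, was 0.987 to 0.991. The share of FPKM in genes named as mitochondrially encoded, without nuclear pseudogenes, was 11.8%, 11.7% and 16.5%.

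The 5 marker genes of the IL-4 state were abundant in all 3 libraries. Arg1, which splits arginine into ornithine and urea, had 813, 1022 and 856 FPKM, a mean of 897 ± 111 (SD, n = 3). Chil3 had 1530.0, 1469 and 1734 FPKM, a mean of 1578 ± 139. Mrc1, which takes up mannosylated glycoproteins, had 589, 459.9 and 554 FPKM, a mean of 534 ± 66.6. Retnla had 1130.2, 597 and 595 FPKM, a mean of 774 ± 309, with library 1 well above the other two, which were nearly equal. Csf1r, the receptor of CSF1 and a defining gene of the lineage, had 213, 173 and 208 FPKM, a mean of 198 ± 21.8. By level these genes stood at places 26 (Chil3), 43 (Arg1), 49 (Retnla), 65 (Mrc1) and 182 (Csf1r) among all genes. The ranges of Arg1 and Retnla overlapped, so their order is not set by these libraries. All 9 genes of a general macrophage list were at 1 FPKM or more, led by Cd53 (382, 469 and 419.7 FPKM), Laptm5 (379, 333 and 373), Adgre1, which encodes F4/80 (389, 331 and 351), and Mpeg1, perforin-2 (321, 352 and 357). Ptprc (CD45) had 45.5, 44.8 and 46.9 FPKM. In bulk RNA a transcript's level per cell and the share of cells that carry it cannot be told apart.

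**Figure D1:**
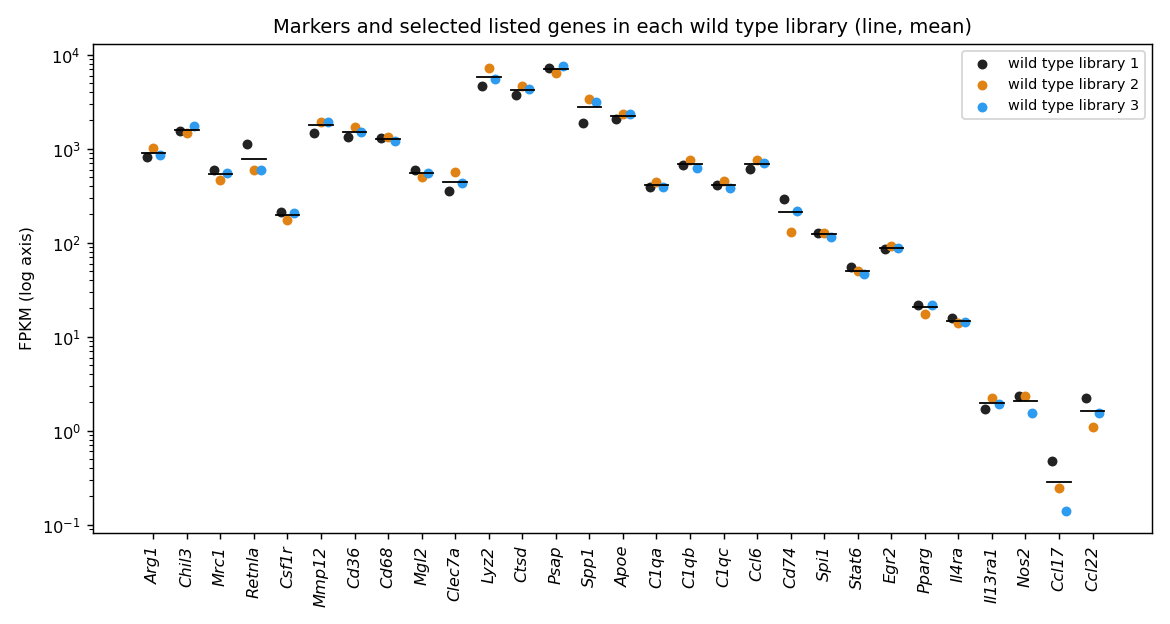
FPKM of the markers and of selected listed genes (log axis), with 1 point for each of the 3 wild type libraries and a line at their mean. Retnla and Cd74 show wider gaps between libraries than Chil3 or Spi1. Ccl17 and Ccl22 lie far below the other IL-4 signature genes drawn here.

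Both resistin-like and chitinase-like markers have a close relative nearby in the genome that was near 0 or low, which is why their sequences are shown. Retnla and Retnlg both lie on chromosome 16, and their coding sequences were identical at 83.6% of aligned bases. Retnlg was listed at 0 in libraries 1 and 2 and had 0.162 FPKM in library 3, against a mean of 774 FPKM for Retnla. STAT6 is known to bind the palindrome TTCNNNNGAA, and both promoters hold it once, in capitals below, at position -145 from the start site for Retnla and -72 for Retnlg. The windows run from 250 bases before to 50 bases after the RefSeq start (GRCm38.p6), on the plus strand, chr16:48842359-48842658 for Retnla and chr16:48872358-48872657 for Retnlg.
Retnla: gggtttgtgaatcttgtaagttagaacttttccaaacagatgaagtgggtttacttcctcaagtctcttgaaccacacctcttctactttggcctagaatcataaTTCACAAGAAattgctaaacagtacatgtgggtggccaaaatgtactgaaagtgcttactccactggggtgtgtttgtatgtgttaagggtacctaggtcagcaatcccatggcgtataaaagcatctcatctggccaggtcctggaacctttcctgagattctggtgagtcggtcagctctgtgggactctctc
Retnlg: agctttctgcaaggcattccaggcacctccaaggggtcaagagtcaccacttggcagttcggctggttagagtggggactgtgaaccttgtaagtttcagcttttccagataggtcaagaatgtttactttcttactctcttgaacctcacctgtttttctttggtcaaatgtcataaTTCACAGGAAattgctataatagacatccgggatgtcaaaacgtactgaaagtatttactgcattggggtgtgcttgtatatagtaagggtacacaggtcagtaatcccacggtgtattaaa
The motif reads the same on both strands. It occurred in 6.95% of all 32851 RefSeq promoters of this length, and in 8.01% of the 27025 genes when any promoter of a gene counted. Among IL-4 signature genes 4 of the 15 with a promoter entry held it (Retnla, Retnlg, Ccl17 and Il1rn), with means between 0.0539 and 774 FPKM. Of the lectin and scavenger receptors 4 of 25 did (Clec7a, Clec4a1, Clec5a and Cd36), and of the arginine, polyamine and proline enzymes 0 of 18. A match of letters is a description of the window only.

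Chil3 and Chil4, which encode Ym1 and Ym2, lie on the minus strand of chromosome 3 (chr3:106147554-106167564 and chr3:106201490-106219507, GENCODE release 21, GRCm38). Their coding sequences were identical at 95.3% of aligned bases. The first 150 coding bases show how little separates them, with the 3 bases that differ in capitals.
Chil3: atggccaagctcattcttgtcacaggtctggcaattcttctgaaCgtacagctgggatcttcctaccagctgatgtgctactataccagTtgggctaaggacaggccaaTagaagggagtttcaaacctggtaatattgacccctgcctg
Chil4: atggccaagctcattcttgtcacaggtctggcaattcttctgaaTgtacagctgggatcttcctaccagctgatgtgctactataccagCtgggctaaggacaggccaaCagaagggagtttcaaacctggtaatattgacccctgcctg
Chil4 had 4.88, 4.59 and 5.72 FPKM, and Chil3 was 312 ± 8.67 times as high (SD, n = 3 library ratios). Reads from such a stretch can be given to either gene, so the low level of Chil4 beside that of Chil3 is uncertain.

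Genes were listed by hand in 4 functional classes, and 788 of the 795 had a row in the table. The median level was 13.9 FPKM over 179 surface receptors and 6.92 over 185 secreted proteins. It was 9.54 over 103 transcription factors and 14.2 over 321 metabolic genes. These medians count members below 1 FPKM too, and stand beside 0.0768 FPKM over all 31883 genes and 1.69 over 17910 protein-coding genes. Among members at 1 FPKM or more they were 24.5, 42.0, 12.3 and 18.1 in the same order, beside 6.76 over all such genes. With every member counted, receptors were highest by median in library 1 and metabolic genes in libraries 2 and 3. In each library transcription factors then came below both and secreted proteins last. The lists hold genes known from macrophages, and the medians depend on that choice. With members taken from Gene Ontology terms and at 1 FPKM or more, the medians were 15.2 FPKM for receptors, 9.92 for secreted proteins, 4.53 for transcription factors and 8.75 for metabolism. With every listed member counted, secreted proteins had the lowest median. They took 15.0 ± 0.663% of the summed FPKM, against 5.25 ± 0.113% for receptors, 0.735 ± 0.0391% for transcription factors and 17.4 ± 2.25% for metabolism (SD, n = 3). The secreted class includes the list of 33 lysosomal and secretory granule enzymes, which alone took 8.38 ± 0.343%. All 33 of these had at least 1 FPKM, and their median was 108 FPKM. Without the 13 mitochondrially encoded proteins, metabolism took 4.86 ± 0.377%. Among the 100 most abundant nuclear protein-coding genes 28 were listed secreted proteins, 15 receptors, 4 metabolic genes and 1 a transcription factor.

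**Figure D2:**
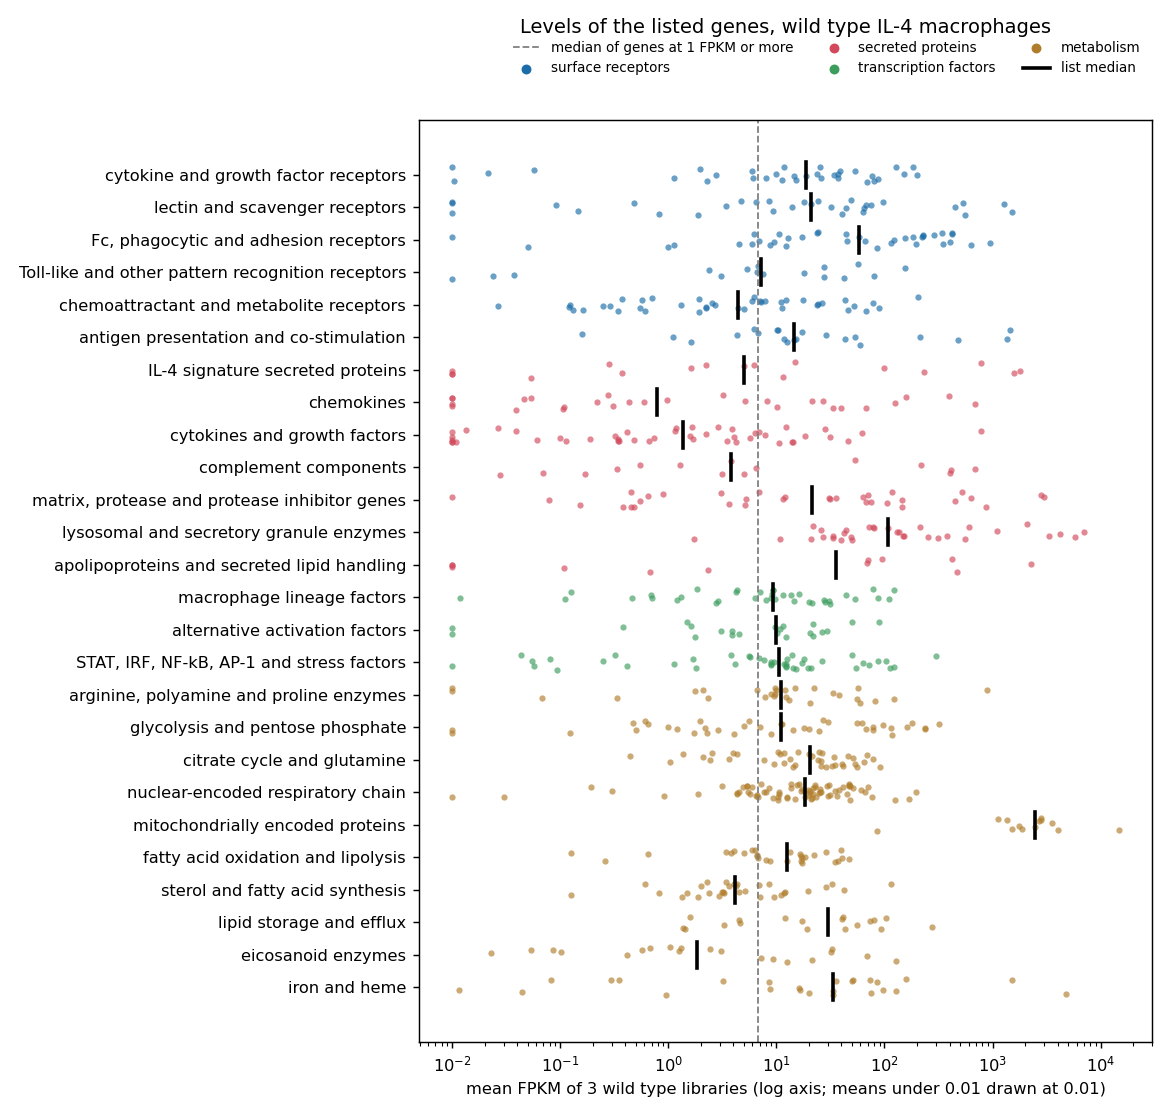
Mean FPKM over the 3 wild type libraries (log axis) of each listed gene, by list, with the list median as a black bar and the median of all genes at 1 FPKM or more as a dashed line. The list medians, unlike the dashed line, count members below 1 FPKM too. Mitochondrially encoded proteins and lysosomal enzymes have the highest medians, and chemokines the lowest, with single members above 100 FPKM in most lists.

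Receptors for cytokines and growth factors were led by those of the colony-stimulating factors. Of 33 members 29 had at least 1 FPKM and 4 at least 100. After Csf1r came the GM-CSF receptor α chain Csf2ra (170.4, 178 and 197 FPKM), whose range overlapped that of Csf1r, the TNF receptor Tnfrsf1b (157, 135 and 162) and Csf2rb2 (138, 117 and 129), the β chain specific to IL-3 in mice. Its shared counterpart Csf2rb, with 95.2% coding identity, had 88.0, 71.9 and 80.8 FPKM, and reads between the pair may be divided either way. The interferon γ receptor chain Ifngr1 had 88.7, 88.5 and 82.9 FPKM. Of the IL-4 receptor chains, Il4ra had 15.6, 13.9 and 14.2 FPKM. The common γ chain Il2rg had 76.8, 72.8 and 78.7 FPKM, and Il13ra1 had 1.72, 2.24 and 1.90. The γ chain was thus 5.23 ± 0.308 times as high as Il4ra, and Il4ra 7.58 ± 1.44 times as high as Il13ra1, with no overlap between ranges. Csf3r, the G-CSF receptor, had the widest relative spread of the members at 1 FPKM or more, with 31.7, 18.5 and 26.8 FPKM. Kit, the stem cell factor receptor, was the lowest member above 0, with 0.0156, 0 and 0.0160 FPKM, and Tnfrsf9 was listed at 0.

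Lectin and scavenger receptors held the transcript with the highest mean of the receptor class, Cd36. This receptor of fatty acids and oxidized lipoprotein had 1323, 1682 and 1507 FPKM. B2m and H2-D1 of the antigen presentation list were above it in library 1, and their ranges overlapped with that of Cd36. The endosomal glycoprotein Cd68 had 1289.6, 1337 and 1213 FPKM. Next to Mrc1 stood the galactose lectin Mgl2 with 597, 504 and 557 FPKM, which was above Mrc1 in each library though the ranges overlapped. The β-glucan receptor Clec7a had 355, 559 and 426 FPKM, highest in library 2. These genes were not matched by all relatives. Cd163, the haemoglobin scavenger, had 1.22, 0.708 and 0.553 FPKM. Mrc2, a relative of Mrc1, had 0.0969, 0.0598 and 0.116 FPKM, and Cd209a and Cd209d were listed at 0 throughout. Cd209b, the lowest above 0, had 0.0217, 0 and 0 FPKM. Over the list, 24 of 31 members reached 1 FPKM, and of these Clec2d varied most (10.1, 19.0 and 12.8 FPKM).

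Fc, phagocytic and adhesion receptors had the highest median of the receptor lists, 58.5 FPKM, with 16 of 37 members at 100 FPKM or more and a median CV (SD over mean) of 7.96%. The β2 integrin Itgb2 had 925, 908 and 1025 FPKM. Its partner Itgax (CD11c) had 631, 578 and 678 FPKM. Its partner Itgam (CD11b) had 424, 395 and 445 FPKM, and Itgb2 was 2.26 ± 0.0700 times as high as Itgam. Itgal (CD11a) had 10.3, 8.77 and 9.55 FPKM. Sirpa, the inhibitory receptor for CD47, had 413, 391 and 461 FPKM and the tetraspanin Cd9 had 339, 473 and 408. Among Fc receptors for IgG the order Fcgr3 (337, 386 and 330.0), Fcgr2b (114, 113 and 121), Fcgr4 (18.6, 18.1 and 15.2) and Fcgr1 (11.7, 11.3 and 8.57) had no overlap between neighbours. Of the receptors for dying cells, Mertk had 13.1, 12.1 and 13.1 FPKM and Axl had 8.53, 6.44 and 5.94. Tyro3 of the same family had 0.0818, 0.0257 and 0.0433 FPKM, and Timd4, which binds phosphatidylserine, was listed at 0. Of the members at 1 FPKM or more Trem1 varied most (0.926, 1.52 and 0.926 FPKM).

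Among receptors for microbial products Cd14, the lipopolysaccharide co-receptor, was highest with 147, 176 and 145 FPKM. Tlr13, which senses bacterial ribosomal RNA, followed with 77.6, 81.6 and 82.8 FPKM and lay 2.94 ± 0.331 times above Tlr4, the lipopolysaccharide receptor. Tlr8 (62.2, 54.8 and 54.3 FPKM), Cd180 (40.6, 40.7 and 44.8) and Tlr7 (28.9, 25.1 and 29.1) came next, whereas Tlr5, Tlr11 and Tlr12 were below 0.1 FPKM in every library. In all, 13 of 16 members reached 1 FPKM, and of these Tlr9 had the widest relative spread (3.68, 2.48 and 3.09 FPKM). Of 41 chemoattractant and metabolite receptors 28 did, with the complement receptors C3ar1 (190.3, 208 and 217 FPKM) and C5ar1 (87.3, 91.8 and 85.3) above the nucleotide receptor P2ry6 (68.5, 69.5 and 65.6) and the chemokine receptor Ccr1 (42.9, 61.1 and 52.5). Neighbours among these 4 did not overlap in range. Ccr7, which guides cells to lymph nodes, had 0.425, 0.300 and 0.402 FPKM.

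Antigen presentation genes were dominated by class I. The light chain B2m had 1515, 1512 and 1369 FPKM, and the heavy chain H2-D1 had 1328, 1324 and 1424. The heavy chain H2-K1 had 474, 458 and 502 FPKM. Class II transcripts were lower and varied far more. The invariant chain Cd74 had 295, 128 and 218 FPKM. Of the chains that it guides, H2-Ab1 had 23.1, 11.3 and 17.4 FPKM. H2-Aa had 17.4, 7.68 and 12.8 FPKM and H2-Eb1 had 22.4, 8.89 and 14.3. All 4 were highest in library 1, as were 46.1% of all genes at 1 FPKM or more, and lowest in library 2, with CVs between 34.2% and 44.7%. Dendritic and B cells express class II too. The 7 dendritic cell genes, none of which reached 1 FPKM, summed to 0.630, 0.494 and 0.607 FPKM, with Siglech and Cd8b1 listed at 0. The 8 B cell genes, of which 2 reached 1 FPKM, summed to 9.28, 7.39 and 7.27 FPKM, and their part in the class II values was not tested. The inhibitory receptor Cd200r1 had 55.7, 61.8 and 60.6 FPKM, and the ligand Cd274 (PD-L1) had 41.7, 44.5 and 42.1. Pdcd1lg2 (PD-L2), a ligand that IL-4 is known to raise in mouse macrophages, had 14.1, 10.2 and 10.9 FPKM, and the co-stimulator Cd86 had 4.04, 4.41 and 4.40.

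Secreted proteins of the IL-4 signature split into a very abundant and a scarce part. Mmp12, macrophage elastase, had 1477, 1941 and 1939 FPKM, above Chil3 in libraries 2 and 3 and below it in library 1. With Chil3 and Retnla it made up 91.8% of the list's summed level. Fibronectin, Fn1, had 272, 190.4 and 229 FPKM and the growth factor Igf1 99.1, 104 and 91.7. The chemokines that IL-4 is known to raise were low, as Ccl24, which attracts eosinophils, had 9.29, 2.14 and 7.23 FPKM. Ccl22 had 2.21, 1.10 and 1.54 FPKM and Ccl17, which shares a receptor with it, had 0.470, 0.244 and 0.140. In this list 11 of 17 members reached 1 FPKM, beside 9755 of 17910 protein-coding genes. A CV of 25% or more was met by 5 of those 11, beside 5.11% of all 10718 genes at that level. The 5 were Ccl24, F13a1 (3.30, 1.51 and 1.88 FPKM), Ear2 (21.5, 9.09 and 13.9), Retnla and Ccl22, and each was highest in library 1, beside 46.1% of all genes. The chitinase Chit1 and its relative Chil1 were listed at 0 in each library.

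Chemokines had the lowest list median, 0.787 FPKM, yet the CC chemokine Ccl6 had 602, 755 and 704 FPKM and Ccl9 392, 443 and 361. The monocyte attractants Ccl7 (129, 169 and 181 FPKM) and Ccl2 (101, 137 and 136) and platelet factor Pf4 (58.1, 79.2 and 66.7) followed. Each of these but Ccl7 peaked in library 2, and 10 of the 13 members at 1 FPKM or more were highest there, beside 35.3% of all genes. The T cell attractant Ccl5 was highest in library 1, with 7.09, 5.21 and 3.21 FPKM. Cxcl9 (0.745, 0.599 and 0.445 FPKM) and Cxcl10 (1.68, 0.769 and 0.486), known as interferon-induced, were low. Ccl1, Ccl19, Ccl20 and Cxcl5 were listed at 0 throughout.

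Granulin, Grn, alone gave 72.7% of the summed level of cytokines and growth factors, with 795, 707 and 864 FPKM. Tgfb1, an immunosuppressive and fibrotic factor, had 64.8, 59.3 and 62.1 FPKM. Tnfsf12 (TWEAK), of the TNF family, had 46.5, 46.9 and 45.4 FPKM and Mif, macrophage migration inhibitory factor, had 32.7, 31.8 and 29.4. Ebi3, a subunit of IL-27 and IL-35, had 30.6, 26.4 and 27.8 FPKM. Vegfa, which drives vessel growth, had 22.9, 17.1 and 15.0 FPKM. The inflammatory cytokine Tnf had 12.9, 15.1 and 13.8 FPKM, whereas Il6, Il1b and Il12b were lower. Il6 had 0.925, 0.256 and 1.02 FPKM and Il1b had 1.51, 1.64 and 0.311. The interleukin 12 subunit Il12b was listed at 0 in libraries 2 and 3 and had 0.183 FPKM in library 1. Il10 had 0.917, 0.294 and 0.793 FPKM, less than Tgfb1 in each library. Of 46 members 25 reached 1 FPKM and 5 were listed at 0 throughout.

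Complement components were led by the 3 chains of C1q, which join in equal numbers in the protein. C1qb had 679, 765 and 625 FPKM. C1qc had 409.5, 449 and 386 FPKM and C1qa had 389, 441 and 388. C1qb was 1.66 ± 0.0423 times as high as C1qc, while C1qc and C1qa overlapped. Properdin, Cfp, had 233, 198 and 220.3 FPKM and C3 64.5, 42.4 and 51.7. Cfd, adipsin, is best known from fat cells and had 16.0, 1.41 and 1.89 FPKM, with library 1 far above the others.

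Matrix and protease genes held very abundant galectin and osteopontin transcripts. Galectin 3, Lgals3, had 2841, 3399 and 2799.7 FPKM. Osteopontin, Spp1, had 1874, 3363 and 3107 FPKM and was far lower in library 1 than in the other two. Annexin A1, Anxa1, which dampens inflammation, had 778, 1044 and 759 FPKM. The sheddase Adam8 had 629, 614 and 653 FPKM, and galectin 1, Lgals1, had 482, 601 and 482. Thrombospondin 1, Thbs1, had 20.3, 9.83 and 5.93 FPKM, the widest spread of the list. Besides Mmp12, which was counted with the IL-4 signature, metalloproteinases ranged from Mmp13 (129, 146 and 156 FPKM), Mmp19 (116, 101 and 101) and Mmp9 (88.9, 57.8 and 79.4) to Mmp2 (0.525, 0.310 and 0.527), and Mmp3 was listed at 0.

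Lysosomal and granule enzymes took the largest share of the nuclear lists, 8.38 ± 0.343% of the FPKM, and all 33 reached 1 FPKM. Psap, the precursor of the saposins, had 7188, 6376 and 7546 FPKM and was the most abundant nuclear protein-coding gene by mean. Lysozyme, Lyz2, had 4644, 7209 and 5499 FPKM and exceeded Psap in library 2. The cathepsins Ctsd (3749, 4619.6 and 4293 FPKM), Ctss (3168, 3438 and 3458), Ctsb (2034, 2112 and 2116) and Ctsz (1047, 1087 and 1139) kept that order in each library with no overlap between neighbours. The median CV of the list was 6.48%, the lowest of the 26 functional lists. Lyz1 had 6.61, 13.4 and 12.4 FPKM, and since it is 95.1% identical to Lyz2 in coding sequence, its level is uncertain. Among apolipoproteins and lipid handling genes Apoe, the carrier of cholesterol leaving the cell, had 2067, 2361 and 2339 FPKM. Lipoprotein lipase, Lpl, had 461, 491 and 455 FPKM, and the phospholipid transfer protein Pltp had 487, 339.9 and 442. Pla2g7 (86.5, 88.3 and 109 FPKM) and Pla2g15 (71.6, 67.7 and 73.3) came next, and of the members at 1 FPKM or more Apoc2 varied most (1.58, 3.16 and 2.32). Apob had 0.00667, 0 and 0 FPKM.

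No listed transcription factor reached 1000 FPKM and 6 of 103 reached 100. Lineage factors were led by PU.1, Spi1, with 126, 126 and 115 FPKM. Bhlhe40 (87.5, 87.2 and 89.0 FPKM), Klf6 (74.2, 81.4 and 78.3) and Id2 (44.1, 57.4 and 58.4) were lower. Cebpa had 40.7, 45.8 and 46.4 FPKM and Cebpb, a factor needed for Arg1 expression in mouse macrophages, had 2.17, 2.37 and 3.70. Gata6, the factor of peritoneal macrophages, had 0.0211, 0.0141 and 0 FPKM, and Spic, that of splenic red pulp macrophages, 0.105, 0.104 and 0.123.

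Of the factors tied to alternative activation, Egr2 was the most abundant with 85.3, 92.0 and 87.2 FPKM, and Stat6 had 54.6, 49.4 and 46.5. Klf4, which acts with STAT6, had 32.7, 25.9 and 29.0 FPKM. Myc had 26.3, 25.9 and 26.9 FPKM and Nfil3 had 23.8, 20.9 and 21.2. The lipid-sensing nuclear receptor Pparg had 21.9, 17.6 and 22.0 FPKM. Irf4, a factor of the M2-like state, had 11.9, 7.32 and 10.1 FPKM and the demethylase Kdm6b (Jmjd3) 1.72, 1.27 and 1.51. Pparg was 12.6 ± 0.735 times as high as its relative Ppard, and Ppara had 0, 0.00682 and 0 FPKM. In this list 19 of 22 members reached 1 FPKM, and 15 of the 19 were highest in library 1, beside 46.1% of all genes.

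Atf3, a factor of the stress response, was the most abundant listed transcription factor with 263, 332 and 299 FPKM. Atf4 (110.0, 132 and 124 FPKM), the AP-1 subunits Jun (108, 108 and 123), Jund (107, 106 and 100.2) and Junb (108, 85.8 and 67.1) and the oxidant-response factor Nfe2l2 (76.1, 72.5 and 69.0) followed. The early response gene Fos had 28.8, 19.2 and 15.0 FPKM, and like Junb it was highest in library 1 and lowest in library 3. Irf5 had 72.9, 61.0 and 58.0 FPKM and was 6.73 ± 1.39 times as high as Irf4. Stat3 (11.0, 8.57 and 9.03 FPKM) and Rela (27.5, 26.0 and 26.5) were of middling level. The T cell factors Foxp3, Gata3 and Tbx21 stayed below 0.1 FPKM.

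Arg1 alone gave 59.5% of the summed level of the arginine, polyamine and proline list. The polyamine enzyme Sat1 had 115, 127 and 125 FPKM. The antizyme Oaz1, which restrains polyamine synthesis, had 76.2, 92.6 and 78.5 FPKM. Ornithine aminotransferase, Oat, had 60.4, 61.0 and 55.4 FPKM, and the creatine enzyme Gatm had 57.7, 61.6 and 50.7. Ornithine decarboxylase, Odc1, had 21.9, 23.9 and 21.5 FPKM, and the arginine transporter Slc7a2 57.4, 52.1 and 56.4. Nos2, which competes for arginine to make nitric oxide, had 2.35, 2.33 and 1.53 FPKM, so that Arg1 was 447 ± 106 times as high. The mitochondrial arginase Arg2, 62.6% identical to Arg1 in aligned coding bases, had 1.54, 1.78 and 1.99 FPKM. Of 28 members 24 reached 1 FPKM, and none of these had a CV of 25% or more, beside 5.11% of all genes at that level.

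In glycolysis the aldolase Aldoa had 325, 336 and 294 FPKM. The phosphoglycerate mutase Pgam1 had 230.4, 258 and 220.1 FPKM and the kinase Pgk1 had 169, 199.7 and 169. Pyruvate kinase, Pkm, had 238, 245 and 229 FPKM, and lactate dehydrogenase, Ldha, which turns pyruvate into lactate, had 156, 177 and 153. Hk3 (125, 117 and 113 FPKM) was 6.62 ± 0.664 times as high as Hk2, and Hk1 was lower still (12.6, 10.5 and 10.4). Gapdh had only 5.89, 5.39 and 5.38 FPKM. It has 70 near-identical copies in the annotation, 67 of them pseudogenes, whose levels summed to 1207 FPKM, so its level cannot be read from its own row. Citrate cycle and glutamine genes lay in a narrow band, with 39 of 40 members at 1 FPKM or more and none at 100. The succinate dehydrogenase subunit Sdhd had 84.3, 105 and 82.3 FPKM and its partner Sdha had 69.6, 60.7 and 62.4. Glud1, which feeds glutamate into the cycle, had 77.4, 79.7 and 78.3 FPKM, and the cytosolic Idh1 had 71.5, 71.0 and 66.3. Acod1, which makes itaconate, had 15.0, 13.4 and 11.9 FPKM. Pck1, an enzyme of liver and fat, had 5.99, 0.413 and 0.855 FPKM, again with library 1 far above the others.

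The nuclear-encoded respiratory chain was expressed broadly, with 71 of 76 members at 1 FPKM or more. Its highest members were the ATP synthase subunits Atp5a1 (208, 194 and 190.3 FPKM) and Atp5b (173, 175 and 159) and the cytochrome oxidase subunits Cox4i1 (111, 144 and 125), Cox6a1 (73.1, 81.9 and 74.2) and Cox8a (74.9, 73.3 and 64.2). Library 2 was highest in 62 of the 71, beside 35.3% of all genes. Mitochondrially encoded subunits were far higher and lay highest in library 3 in 13 of 13, beside 18.6% of all genes. The cytochrome oxidase subunit mt-Co1 had 12473, 13139 and 18834 FPKM, the highest level in the table in each library, and mt-Nd3, the lowest of the 13, had 69.1, 78.4 and 107. On chromosome 1, 6 nuclear pseudogenes had values close to those of mitochondrial genes and took 3.65%, 3.72% and 5.10% of the FPKM. An example is Gm28661 with 3515 FPKM beside 3539 for mt-Co2. Each was paired with the mitochondrial gene nearest in value, so closeness was set by the search. The coding sequences of mt-Co2, mt-Atp6, mt-Co3 and mt-Nd4l also had near-identical pseudogene copies at these levels. The pairs of Gm29216 with mt-Nd4 and Gm28439 with mt-Nd6 rest on value alone.

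Fatty acid oxidation genes were of middling level, with 26 of 29 members at 1 FPKM or more. None of these had a CV of 25% or more, beside 5.11% of all genes at that level. Their median CV was 9.02%, beside 8.62% for all genes. The long-chain acyl-CoA dehydrogenase Acadl had 47.5, 51.1 and 43.3 FPKM. The electron transfer flavoprotein subunit Etfb had 38.0, 45.3 and 38.0 FPKM and its partner Etfa had 41.2, 41.0 and 37.6. The triglyceride lipase Pnpla2 had 39.4, 34.7 and 29.5 FPKM. Cpt1a, the entry step of the pathway, had 15.3, 12.6 and 11.9 FPKM. Sterol and fatty acid synthesis was lower, with a median of 4.14 FPKM. The desaturase Scd2 had 117, 109 and 122 FPKM and its relative Scd1 45.1, 23.1 and 29.2, highest in library 1. The elongase Elovl1 had 39.1, 42.8 and 46.0 FPKM and Elovl5 had 28.6, 28.8 and 29.3. In lipid storage and efflux the droplet protein Plin2 had 263, 300.1 and 254 FPKM, and the cholesterol exporters Abca1 (109, 98.4 and 102) and Abcg1 (100.1, 85.8 and 94.9) had overlapping ranges. The cholesteryl ester hydrolase Nceh1 had 77.2, 76.9 and 87.3 FPKM and Ch25h, an enzyme of oxysterol synthesis, 53.5, 88.7 and 78.1. Fabp4 had 15.4, 9.65 and 10.7 FPKM and Plin4 2.78, 0.892 and 1.11, both highest in library 1.

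Eicosanoid enzymes were uneven. Alox5ap, which presents arachidonic acid to 5-lipoxygenase, had 123, 138 and 125 FPKM, 105 ± 21.7 times as high as the lipoxygenase Alox5 itself. The epoxide hydrolase Ephx1 had 76.0, 65.5 and 67.2 FPKM and the thromboxane synthase Tbxas1 30.4, 33.8 and 32.6. The cyclooxygenase Ptgs1 had 22.5, 19.6 and 22.0 FPKM and the inducible Ptgs2 1.46, 1.53 and 0.937. Alox15, which IL-4 is known to raise in human monocytes, had 0.839, 0.216 and 0.666 FPKM. In iron handling the ferritin light chain Ftl1 had 4692, 5199 and 4352 FPKM, 3.13 ± 0.0710 times as high as the heavy chain Fth1 (1489, 1702 and 1363). Haem oxygenase, Hmox1, had 147, 169.6 and 156 FPKM and the transferrin receptor Tfrc 79.4, 61.9 and 84.5. The iron exporter ferroportin, Slc40a1, was at 0.337, 0.317 and 0.224 FPKM. Haptoglobin, Hp, had 4.45, 8.32 and 12.9 FPKM and varied most in this list.

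Spread between the libraries was of like size in the 4 classes. The median CV was 9.22% for receptors, 10.1% for secreted proteins, 10.0% for transcription factors and 9.42% for metabolism, beside 8.62% for all genes at 1 FPKM or more. A CV of 25% or more was met by 8 of 148 receptors, 15 of 123 secreted proteins, 3 of 85 transcription factors and 13 of 284 metabolic genes, beside the 5.11% of all genes. The share was 12.2% in secreted proteins and 3.53% in transcription factors. By level, the median CV was 9.48% for genes from 1 to 10 FPKM, 7.38% from 10 to 100, 7.73% from 100 to 1000 and 20.2% for the 40 genes at 1000 FPKM or more. Of these 40, 12 were mitochondrially encoded proteins and 6 the chromosome 1 pseudogenes with values close to mitochondrial genes. The mitochondrially encoded list had a median CV of 24.0%, so the 20.2% does not describe nuclear genes alone. CVs of the nuclear protein-coding genes at 1000 FPKM or more ran from 2.22% (Ctsb) to 28.6% (Spp1). Among 3766 named protein-coding genes with a mean of at least 10 FPKM the widest spread was that of 1 of the 2 gene IDs named Septin2 (2.32, 8.28 and 24.2 FPKM). The other ID had 37.2, 36.8 and 26.5 FPKM, and reads between the pair may be divided either way. Thbs1, Ear2, Retnla, Cd74 and H2-Eb1 were the listed genes among the 10 widest. The other members of the 10 were Sumo2 and the ribosomal protein genes Rpl17, Rps27 and Rps27rt, a retrogene of Rps27. The steadiest were Ppm1b, Trpv2, Casc3, Hmg20b and Ythdf3, with CVs between 0.164% and 0.314%.

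**Figure D3:**
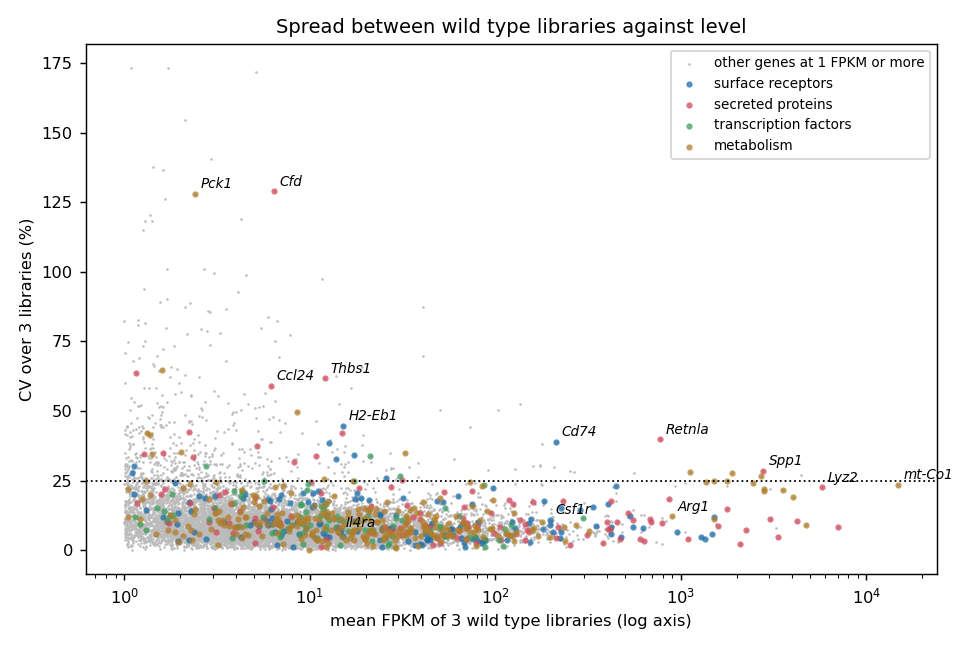
CV over the 3 wild type libraries (%) against mean FPKM (log axis) for genes at 1 FPKM or more, with listed genes in colour by class and a dotted line at 25%. Most listed genes lie below the line, while Retnla, Cd74 and Spp1 lie above it at high levels and Cfd and Pck1 stand at 129% and 128%.

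Each library stood apart in some lists. Library 1 was highest in 56 of 85 transcription factors, beside 46.1% of all genes, but in the lineage list in 15 of 31, near that share. Library 2 was highest in 149 of 271 metabolic genes that are not mitochondrially encoded, beside 35.3% of all genes, and library 3 in all mitochondrially encoded proteins. Library values also ran with gene length. Across 9737 protein-coding genes the deviation of a library from the mean had a Spearman correlation with exon length of 0.363 in library 1, -0.397 in library 2 and 0.0642 in library 3, a description over genes that share 1 library. The median deviation on the log2 scale was -0.04 in the shortest and 0.10 in the longest quintile of genes in library 1, and 0.09 and -0.07 in library 2. Median exon length was 1578 bases in the nuclear respiratory chain list and 1811 in the chemokine list, 4445 in the STAT, IRF and AP-1 list and 4435 over all these genes. The part of length in the list values was not tested.

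**Figure D4:**
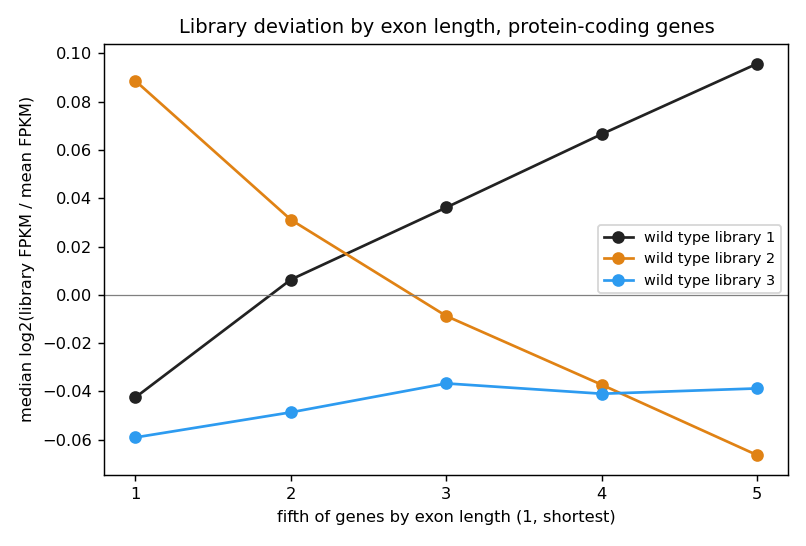
Median deviation of each wild type library from the mean of the 3, as log2(library FPKM / mean FPKM), for protein-coding genes at 1 FPKM or more by quintile of exon length. The median runs upward with length in library 1 and downward in library 2, and is nearly flat in library 3.

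**Figure D5:**
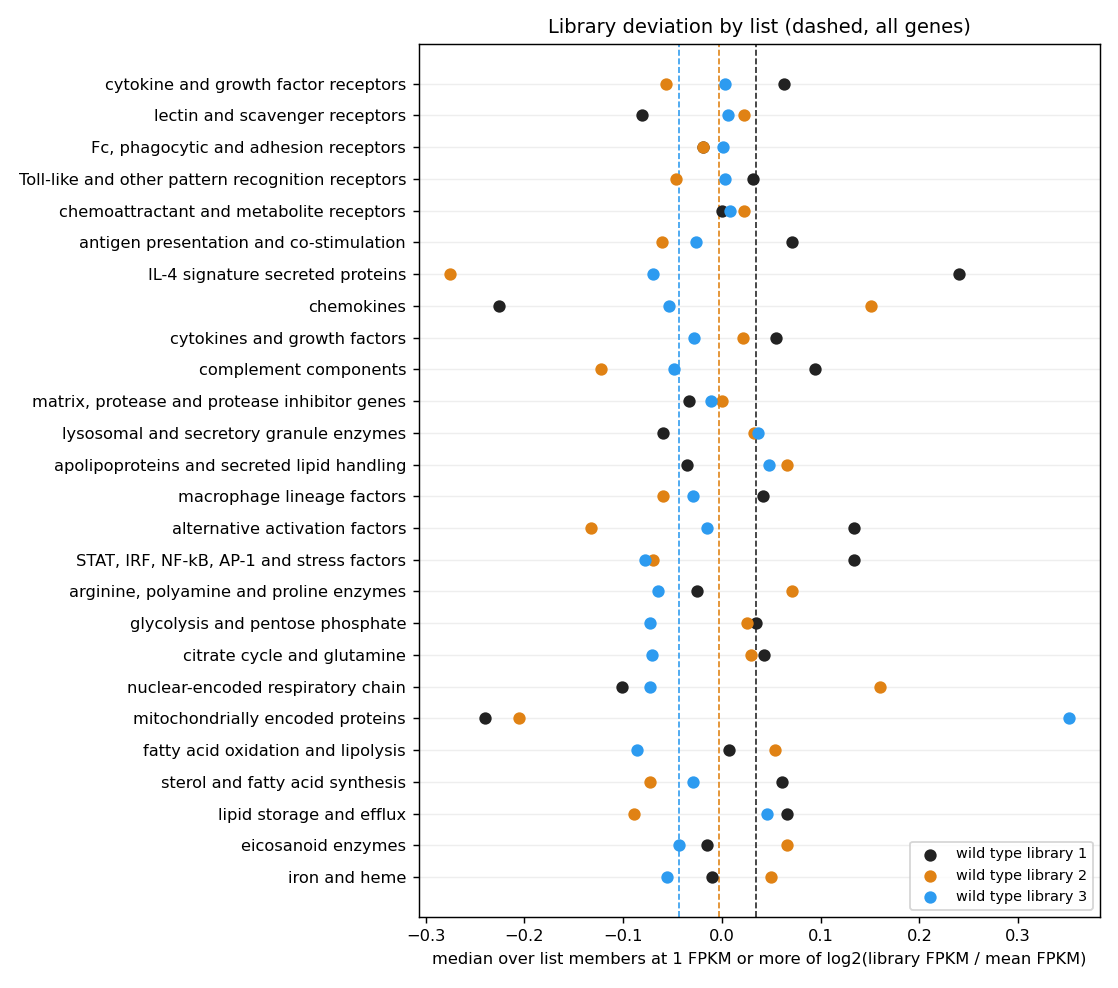
Median over list members of log2(library FPKM / mean FPKM), 1 point per wild type library and list, with dashed lines for all genes at 1 FPKM or more. The alternative activation factors and the STAT, IRF, NF-kB, AP-1 and stress factors lie to the right in library 1, while the macrophage lineage factors lie near all genes. The nuclear respiratory chain lies to the right in library 2 and mitochondrially encoded proteins in library 3.

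Transcripts of other tissues were scarce and differed by library. Of 13 skeletal muscle genes 1 reached a mean of 1 FPKM, and together they summed to 7.36, 1.01 and 1.36 FPKM. Myh4, Tnnt3, Actn3, Tnnc2 and Pvalb were above 0 in library 1 alone. Of 8 adipocyte genes 4 reached 1 FPKM, and together they summed to 29.3, 11.7 and 14.9 FPKM, led by Car3 with 13.05, 4.05 and 3.00 FPKM. The droplet gene Cidec had 7.53, 3.20 and 5.59 FPKM and adiponectin, Adipoq, had 5.92, 2.46 and 3.36, whereas leptin, Lep, was highest in library 3 (0.843, 1.39 and 2.41). Of the genes described above, Cfd, Pck1, Scd1, Fabp4, Plin4 and Retnla were highest in the same library 1, as were 46.1% of all genes at 1 FPKM or more, and the part of fat cell RNA in their values was not tested. Of 13 epididymis genes 2 reached 1 FPKM and 5 were listed at 0 throughout, and together they summed to 0.0329, 24.6 and 0.107 FPKM, led by Gpx5 (0, 15.3 and 0.0854 FPKM) and Lcn5 (0, 5.16 and 0). Haemoglobin gave the most of the erythroid sum of 6.90, 2.44 and 2.20 FPKM, with 3.40, 1.31 and 0.845 FPKM for Hbb-bs.

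Markers of other blood cells were near 0. No member reached a mean of 1 FPKM among 10 neutrophil genes (sums of 0.334 to 1.13 FPKM), 10 T and NK cell genes (0.143 to 0.345), 7 mast cell and basophil genes (0.0874 to 0.219), 7 dendritic cell genes (0.494 to 0.630) and 5 platelet genes (0.0374 to 0.218). Stromal genes summed to 2.05 to 2.57 FPKM, and endothelial genes to 2.62 to 4.29 FPKM with Pecam1 at 2.38, 1.24 and 1.78 and Kdr at 1.31, 1.02 and 1.44. Among B cell genes Ighm (5.39, 3.73 and 3.31 FPKM) and Cd79b (3.72, 3.15 and 3.72) were above 1 FPKM, while Pax5 and Ms4a1 stayed below 0.1. Of 6 osteoclast genes 4 reached 1 FPKM. The proton pump subunit Atp6v0d2 had 348, 372 and 329 FPKM, and the cell fusion gene Ocstamp had 32.0, 27.0 and 29.8. Dcstamp, which also acts in cell fusion, had 26.3, 20.4 and 23.3 FPKM. The osteoclast factor Nfatc1 had 7.34, 6.38 and 6.07 FPKM, while Calcr and Oscar were listed at 0. All 16 cell cycle genes were at 1 FPKM or more, with 139, 151 and 133 FPKM for Pcna and 22.4, 16.9 and 22.3 for Mki67. The Y-linked genes Ddx3y (15.7, 13.4 and 13.9 FPKM), Eif2s3y (11.1, 11.9 and 12.8), Uty (3.38, 3.06 and 2.92) and Kdm5d (2.45, 1.83 and 2.04) were present in each library and Xist was at 0, 0 and 0.00258.

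Near-identical copies limit other single values. Of 916 listed genes with a coding sequence, 85 had a copy at 95% identity or more over at least 80% of it, and in 16 the copies summed to more than the gene itself. Besides Gapdh, Chil4 and Lyz1 these included Ear10, beside Ear2, and the ATP synthase genes Atp5g1 and Atp5l. In 42 genes of the functional classes, members of the 16 included, the copies summed to at least 0.1 times the gene's own level. Among them were Tnfsf12, with 24.2 FPKM in its copy beside 46.3, and Pgam1, with 31.3 beside 236.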

How the data were processed

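The data are 3 wild type libraries, described as 1 group with no contrast and no test. FPKM per gene was computed by the authors and deposited without read counts. The deposited table also holds the authors' fold (a ratio), its log2, and a p-value and q-value per gene from their own comparison, none of them used here. Tools that the submitters' processing notes mention, without roles, are HISAT2, StringTie, cutadapt, FastQC, edgeR and DESeq2. For the genome's build and annotation, a name was not given in the sources used here. Libraries were poly(A)-selected, strand-specific and read as pairs, per the labels' protocols. Depth is unknown, so no counting interval was computed, and FPKM, a share of the library, moves for all genes when a few abundant ones move.

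From the FPKM, the mean, the SD and the CV (SD over mean) over 3 libraries were computed with Python 3.11.15 and pandas 2.3.3. CVs were summarised for genes with a mean of at least 1 FPKM. Gene types, positions and exon lengths came from GENCODE mouse release 21, matched by gene ID for 99.7% of genes. Copies were sought with BLAST+ 2.17.0 and promoters taken from RefSeq. Of the steps, only the CV calculation and the medians by exon length were tested on simulated data.

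The 42 gene lists (26 functional, 16 for other cell types and checks) and the members were chosen with earlier results of these data known. By rule the text takes the markers, the highest nuclear protein-coding genes, and in each list the highest and lowest members and the one with the widest relative spread. Not every gene the rule takes is reported, and other genes named were chosen after their values were seen. Of 938 listed genes 14 had no row and were not analysed here, and 2 symbols had more than 1 gene ID, of which the lowest ID was used. Alternatives tried were other member choices, filters, scalings and leaving out each library.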

Additional observations from a re-analysis of the deposited data

How the results depend on the processing

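No paired analysis was possible because the values come from 1 group and from no test. Of 151 alternative values of 25 results, 127 stayed within the spread between libraries or, for counts and CVs, within 1.5 times, and 24 did not. Class medians moved with the choice of members. With members at 1 FPKM or more alone, they were 24.5 FPKM for receptors, 42.0 for secreted proteins, 12.3 for transcription factors and 18.1 for metabolism. Secreted proteins, lysosomal enzymes included, thus came first. With all members of Gene Ontology terms they were 0.0417, 0.0457, 0.562 and 3.23 FPKM in the same order, and with those terms at 1 FPKM or more, chosen after seeing the data, 15.2, 9.92, 4.53 and 8.75. Rescaled without mitochondrially encoded transcripts, the metabolism median was 12.6 FPKM. As shares of the FPKM that is not mitochondrially encoded, receptors took 6.06%, secreted proteins 17.3%, transcription factors 0.848% and metabolism 5.60%. The 6 chromosome 1 pseudogenes, at 3.65%, 3.72% and 5.10% of all FPKM, were kept in these settings. Genes with a CV of 25% or more numbered 134 with a filter at 5 FPKM and 11091 with none. Without that filter the median CV was 15.3% for secreted proteins and 21.8% for all genes. Leaving out each library in turn gave receptor medians of 12.6 to 14.9 FPKM, receptor median CVs of 6.04 to 8.89% and transcription factor median CVs of 6.34 to 10.9%. The lowest of these came without library 1 for the receptor median and the transcription factor CV and without library 2 for the receptor CV. A CV over 2 libraries is not on the same footing as one over 3. Mean Retnla was 596 FPKM without library 1 and at most 863 FPKM without another library.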
